A study of Mus musculus with 20 samples.

Results

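The insulin-like growth factor (IGF) system was examined in pancreas of mice that lack inceptor and of wild-type mice around birth. It was taken as 10 listed genes, namely the ligands Igf1 and Igf2, the receptors Igf1r and Igf2r, and the binding proteins Igfbp2, Igfbp3, Igfbp4, Igfbp5, Igfbp6 and Igfbp7. Igfbp1 was left out of the list as mainly a liver product. The 10 genes were found by symbol among 30063 named genes. Each had a single probe set with 1 gene symbol, and all 10 passed the filter on low signals, as did 17993 genes in all.

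IGF1 and IGF2 are secreted growth factors related to insulin, and both act through the IGF1 receptor, a tyrosine kinase at the cell surface. The IGF2 receptor, which also carries lysosomal enzymes, takes up IGF2 for degradation and does not signal as a kinase. Binding proteins hold IGFs in blood and tissue and set how much of them reaches the receptor. In developing organs, mesenchymal and endothelial cells are among the known sources of IGFs and their binding proteins. Inceptor, which dampens insulin receptor signalling, has also been linked to the IGF1 receptor.

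RNA was measured on 20 Affymetrix transcript arrays of whole pancreas from C57BL/6J mice. At P0, the day of birth, there were 6 Iir -/- (knockout) and 5 Iir +/+ (wild-type) arrays, from pups starved for 5 h. At embryonic day 18.5 (E18.5) there were 5 knockout and 4 wild-type arrays, from embryos whose mothers were starved for 2 h. Sex was not determined, and the labels give no litter, no detail of the mutant allele and no statement on whether arrays came from different animals. The p-values therefore reflect how far these samples spread, which may be technical in part. Values are log2 signals, and differences are log2 differences ± SE of a limma fit over all 20 arrays. A gene was called at an adjusted p under 0.05, by the Benjamini-Hochberg method over all tested genes. Between the ages, counts such as "lower in 6 of 6" give the P0 arrays on that side of the mean of the E18.5 group.

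The inceptor gene Elapor1 averaged 6.05 ± 0.30 (SD, n = 6) in P0 knockouts and 11.54 ± 0.35 (SD, n = 5) in P0 wild types. At E18.5 it averaged 6.31 ± 0.30 (SD, n = 5) in knockouts, against 11.86 ± 0.22 (SD, n = 4) in wild types. The knockout differences were -5.49 ± 0.18 at P0 (adjusted p = 8.10e-13) and -5.55 ± 0.19 at E18.5 (adjusted p = 4.13e-12). Array medians lay between 4.81 and 4.94. The mean of the 10 acinar markers with a probe set ran from 16.19 to 17.34, and that of the 14 islet markers from 10.18 to 10.92. Markers of neighbouring organs varied between arrays, with a mean of 6.72 to 12.09 for 16 liver genes, 4.84 to 7.79 for 10 intestinal genes and 4.99 to 7.94 for 9 skeletal muscle genes. The mean of the intestinal or the skeletal muscle genes was over 7 on 5 arrays, of which 3 were E18.5 knockouts (1, 2 and 4), 1 was an E18.5 wild type (4) and 1 a P0 knockout (4).

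The DNA just before the annotated gene start is shown for Igf2r and Igfbp7, the 2 genes called between the ages in both genotypes, from RefSeq on GRCm38.p6. Both windows are 250 bases long and end just before the first base of the gene. Capitals mark the E-box CACGTG and the GC box GGGCGG, searched on both strands, so that CCGCCC is also in capitals.

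Igf2r, chr17:12769707-12769956, minus strand: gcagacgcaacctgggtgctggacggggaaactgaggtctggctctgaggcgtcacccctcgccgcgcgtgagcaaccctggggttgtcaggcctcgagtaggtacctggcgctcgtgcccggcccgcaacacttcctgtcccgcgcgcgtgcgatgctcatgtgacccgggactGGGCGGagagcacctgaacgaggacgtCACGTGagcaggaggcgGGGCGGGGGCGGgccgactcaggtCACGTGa

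Igfbp7, chr5:77408046-77408295, minus strand: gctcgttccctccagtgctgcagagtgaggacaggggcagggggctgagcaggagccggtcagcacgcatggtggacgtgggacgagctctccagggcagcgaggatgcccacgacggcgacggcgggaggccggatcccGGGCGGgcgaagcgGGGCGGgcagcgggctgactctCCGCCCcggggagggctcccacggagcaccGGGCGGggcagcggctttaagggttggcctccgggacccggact

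The Igf2r window held 2 E-boxes, which begin 48 and 7 bases before the start, and 3 GC boxes. Of 32851 such windows of mouse genes, 6.02% held an E-box and 0.429% held 2 or more. The Igfbp7 window held 4 GC boxes and no E-box. Of all windows 32.7% held a GC box and 16.7% held 2 or more. For Igfbp3, the member with the largest difference between the ages in knockouts, a 30-base stretch around a TATATA motif is shown, with that motif in capitals. The motif begins 30 bases before the start given in the table, and 5.25% of all windows held it on either strand.

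Igfbp3, chr11:7213936-7213965, minus strand: caccccggcttcTATATAtcggcctgcgcg

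The annotated Igfbp3 gene also has a start further upstream. Neither an E-box nor a GC box was in the Igfbp3 window, and the FOXO motif GTAAACA, held by 3.17% of all windows on either strand, was in no window of the 10 genes. Such matches describe letters only, and no binding was measured.

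Between E18.5 and P0 the receptor for IGF2 fell while several binding proteins rose. Igf2r fell in both genotypes, Igfbp7 rose in both, and in knockouts Igf1 also fell while Igf1r, Igfbp3, Igfbp4 and Igfbp6 rose. In knockouts 7 of the 10 genes were called, 5 higher and 2 lower at P0, where 23.0% of all tested genes were called (11.3% higher and 11.7% lower). In wild types 2 of the 10 were called, 1 higher and 1 lower, where 8.86% of all tested genes were (4.76% higher and 4.10% lower). The median log2 difference of the 10 genes was 0.37 in knockouts and 0.22 in wild types, against -0.0037 and 0.0056 over all tested genes. The counts of the 2 genotypes do not show that the genotypes differ: none of the 10 passed the test of that difference, given further on.

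**Figure D1:**
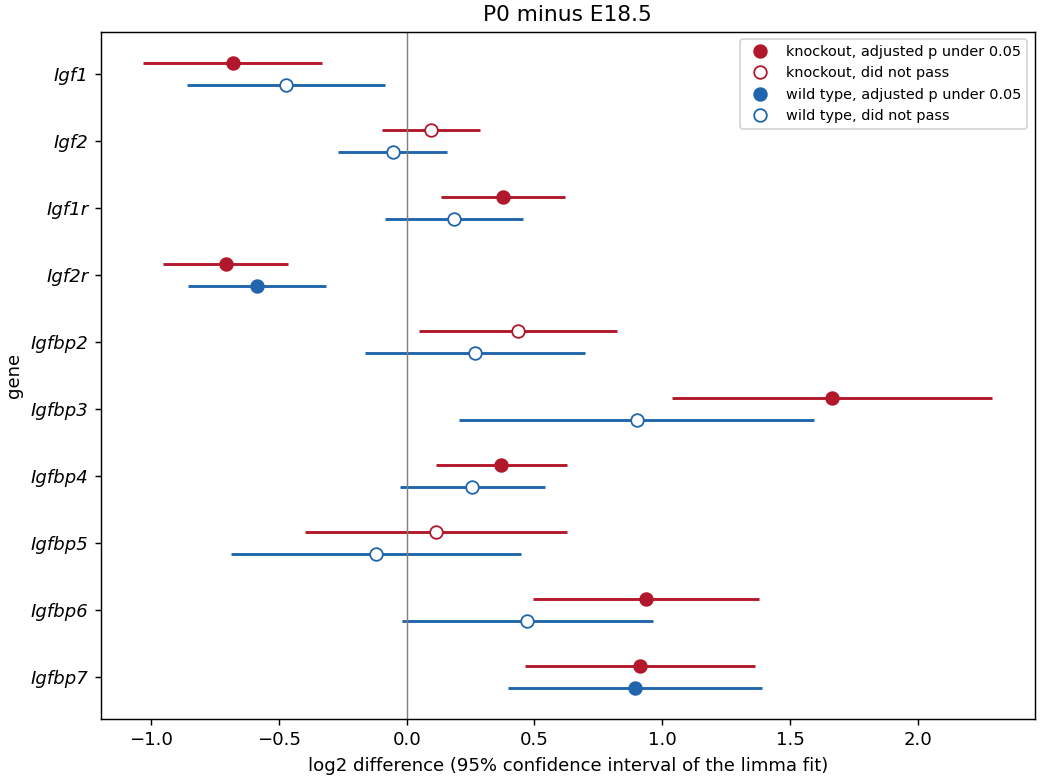
Log2 difference of P0 minus E18.5 (x axis) for each of the 10 genes (y axis), in knockouts (red, upper of each pair) and wild types (blue, lower), with 95% confidence intervals of the limma fit. Filled points were called and open points did not pass: Igf2r lies below 0 and Igfbp7 above 0 in both genotypes, and Igfbp3 in knockouts lies furthest from 0, at 1.66.

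The ages differed in more than age. Pups were starved themselves, while embryos were in starved mothers, and the running sample numbers in the labels were 1 to 12 at P0 and 13 to 22 at E18.5, so that age, starvation and sample order cannot be told apart. In whole tissue, fewer cells of a type and less RNA per cell cannot be told apart either. Of 18 mesenchymal and matrix markers, 8 were called higher at P0 in knockouts and 2 in wild types, with medians of 0.30 and 0.22. Of 16 liver markers 0 were called in either genotype by limma, with medians of 0.55 in knockouts and -0.92 in wild types. With the liver marker mean as a covariate the same 7 and 2 members were called. With the mesenchymal marker mean as a covariate, Igfbp4 in knockouts had a difference of 0.18 (adjusted p = 0.390), against 0.37 without it. Igfbp7 in wild types had 0.88 with that covariate, against 0.89 without it, and was not called (adjusted p = 0.0698). The part of stroma in the other rises was not tested further. Of 10 acinar markers, 3 were called lower and 0 higher at P0 in each genotype. Median differences were -0.027 in knockouts and -3.6e-15 in wild types, the latter being rounding error. Markers with the same value on the compared arrays cannot show a difference, so the number of acinar markers above 0 is not informative. Their mean was 16.19 to 16.76 in P0 knockouts and 16.30 to 16.63 in P0 wild types. At E18.5 it was 17.09 to 17.34 in knockouts and 16.91 to 17.33 in wild types. The part of acinar cells in the differences of the 10 genes was not tested.

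Among the ligands, Igf1 was lower at P0. It had a lowest signal of 10.25, a median of 10.60 and a highest of 11.01 in the 6 P0 knockouts, against 10.91, 11.35, 11.52, 11.32 and 11.33 in E18.5 knockouts. All but 1 of the P0 knockouts lay below every E18.5 knockout, and the groups overlapped only between the highest P0 array (11.01) and E18.5 knockout 1 (10.91). The difference was -0.68 ± 0.17 (adjusted p = 0.00679, lower in 6 of 6 arrays). In wild types Igf1 had 11.04, 11.24, 10.13, 11.03 and 10.64 at P0, against 11.39, 11.27, 11.29 and 11.19 at E18.5. That difference of -0.47 ± 0.18 did not pass (adjusted p = 0.118, lower in 5 of 5), the groups overlapped, and P0 wild types 3 and 5 stood below the other 3.

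Igf2, the main fetal ligand and a gene expressed from the paternal allele, had the same value on many arrays, which limits its comparison. Its signal was 11.448 on 10 of the 20 arrays (2 P0 knockouts, 3 P0 wild types, 3 E18.5 knockouts and 2 E18.5 wild types), and within 0.05 of that on 13. Such a shared value on 10 or more arrays occurred in 1.86% of tested genes, and a shared value of this kind can hide differences in level. The P0 knockouts spanned 11.07 to 11.64 and the E18.5 knockouts 10.97 to 11.45, with 3 of these arrays on the plateau. The fitted differences, 0.094 ± 0.091 in knockouts and -0.056 ± 0.10 in wild types, did not pass (adjusted p = 0.507 and 0.796); the cause of the shared value was not tested.

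Both receptors differed between the ages in knockouts, in opposite directions. Igf2r had a lowest signal of 9.20, a median of 9.32 and a highest of 9.45 in P0 knockouts, against 9.84, 10.28, 10.05, 10.02 and 9.97 in E18.5 knockouts. The groups did not overlap, and the gene was 1.63-fold lower at P0 (-0.71 ± 0.12, adjusted p = 0.000412, lower in 6 of 6 arrays). In wild types it had 9.75, 9.77, 9.10, 9.61 and 9.41 at P0, against 10.19, 10.28, 10.19 and 9.79 at E18.5. These groups were apart by a narrow gap, between P0 wild type 2 (9.77) and E18.5 wild type 4 (9.79), and the difference was -0.59 ± 0.13 (adjusted p = 0.00973, lower in 5 of 5). With the compared groups fitted alone this call was lost (adjusted p = 0.0649).

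Igf1r, the signalling receptor, moved less. It had a lowest signal of 8.46, a median of 8.74 and a highest of 8.86 in P0 knockouts, against 8.27, 8.44, 8.31, 8.31 and 8.26 in E18.5 knockouts. The P0 arrays all lay above the E18.5 arrays, with a difference of 0.38 ± 0.12 (1.30-fold, adjusted p = 0.0253, higher in 6 of 6). The call was lost without E18.5 knockout 1 (adjusted p = 0.0526) or P0 knockout 3 (adjusted p = 0.0550). Wild types had 8.57, 8.56, 8.66, 8.29 and 9.13 at P0, against 8.25, 8.43, 8.57 and 8.60 at E18.5, which overlapped (0.18 ± 0.13, adjusted p = 0.413, higher in 4 of 5).

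**Figure D2:**
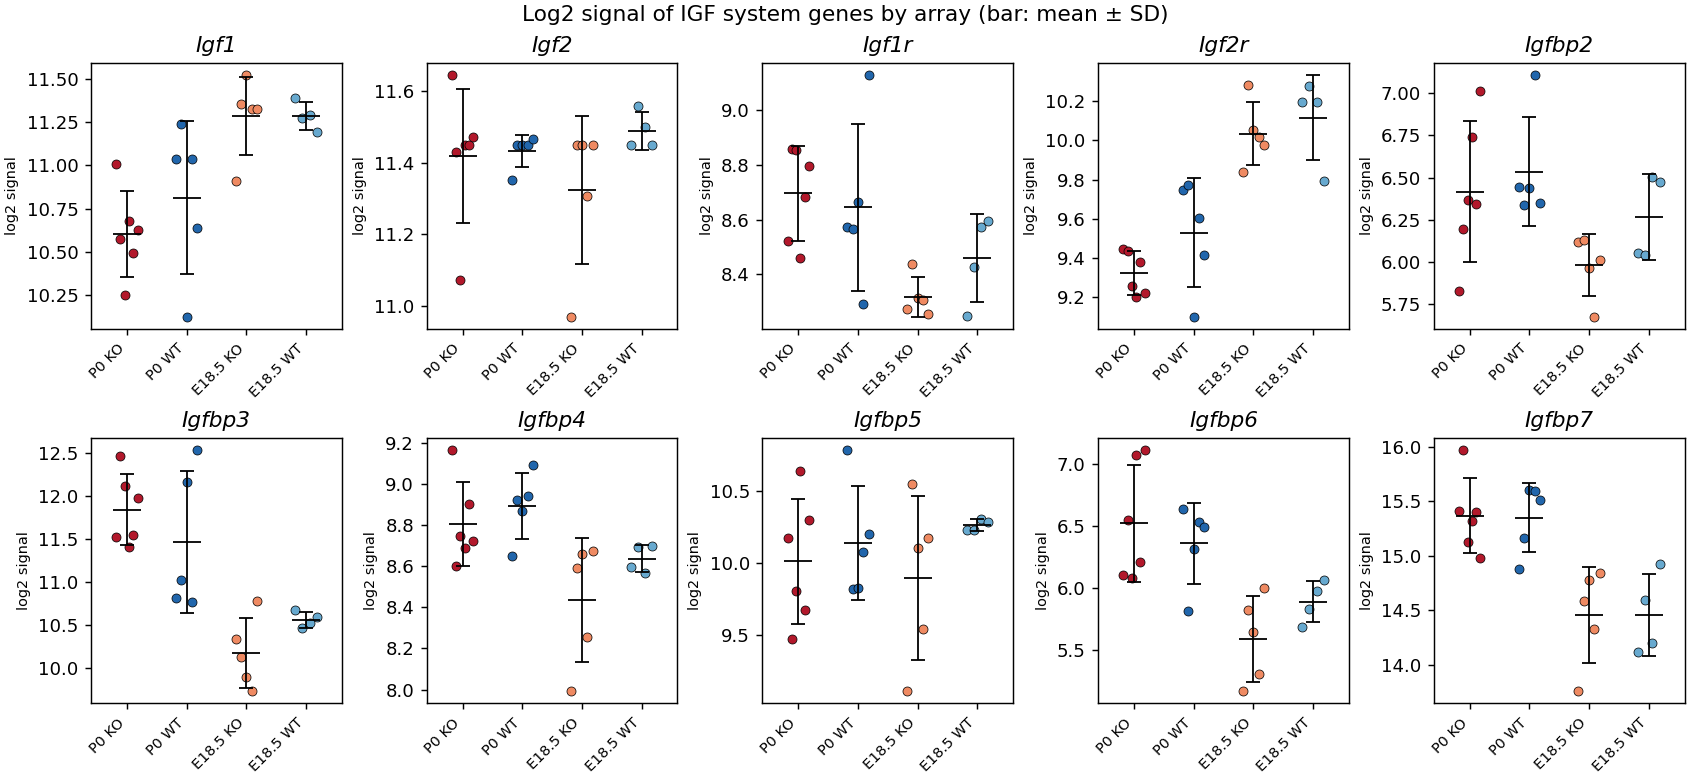
Log2 signal (y axis, scaled per gene) of the 10 genes on every array, in P0 knockouts (n = 6), P0 wild types (n = 5), E18.5 knockouts (n = 5) and E18.5 wild types (n = 4), with bars at the mean ± SD. Igf2r is lower and Igfbp3 and Igfbp7 are mostly higher at P0, while Igf2 lies near a plateau of 11.448 on most arrays.

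Igfbp3, which carries most IGF in blood in a complex with the acid-labile subunit, had the largest difference of the 10 between the ages in knockouts. It had a lowest signal of 11.40, a median of 11.76 and a highest of 12.46 in P0 knockouts, against 10.34, 10.13, 9.89, 9.73 and 10.78 in E18.5 knockouts. Without overlap, it was 3.17-fold higher at P0 (1.66 ± 0.30, adjusted p = 0.000797, higher in 6 of 6). In wild types it had 10.81, 11.03, 12.17, 10.77 and 12.54 at P0, against 10.68, 10.46, 10.52 and 10.59 at E18.5. Each P0 wild type was above every E18.5 wild type, but the P0 wild types were far apart from each other: numbers 3 and 5 lay within or above the range of the P0 knockouts and numbers 1, 2 and 4 below it. The wild-type difference of 0.90 ± 0.33 did not pass (adjusted p = 0.0961), and passed with the mesenchymal marker mean as a covariate (adjusted p = 0.0467).

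Igfbp7, a matrix protein of vessels that binds IGFs weakly, rose in both genotypes. It had a lowest signal of 14.98, a median of 15.36 and a highest of 15.98 in P0 knockouts, against 13.76, 14.58, 14.78, 14.33 and 14.84 in E18.5 knockouts. The groups did not overlap (0.91 ± 0.21, 1.88-fold, adjusted p = 0.00518, higher in 6 of 6). In wild types it had 14.88, 15.16, 15.61, 15.60 and 15.51 at P0, against 14.11, 14.60, 14.20 and 14.93 at E18.5. P0 wild type 1 (14.88) lay just below E18.5 wild type 4 (14.93), and the difference was 0.89 ± 0.24 (1.86-fold, adjusted p = 0.0264, higher in 5 of 5). The wild-type call was lost when any one of 6 arrays was left out, namely numbers 3, 4 and 5 of the P0 wild types or numbers 1, 2 and 3 of those at E18.5, and the adjusted p was then 0.0517 to 0.0917 at differences of 0.78 to 0.94. None of 11 endothelial markers was called between the ages by limma, with medians of 0.23 in knockouts and 0.20 in wild types. In knockouts 7 of these markers were above 0 and in wild types 10, and their part in the rise of Igfbp7 was not tested.

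Igfbp6, which prefers IGF2 over IGF1, rose in knockouts. It had a lowest signal of 6.08, a median of 6.38 and a highest of 7.12 in P0 knockouts, against 5.17, 5.83, 5.64, 5.30 and 6.00 in E18.5 knockouts. The groups did not overlap (0.94 ± 0.21, 1.91-fold, adjusted p = 0.00397, higher in 6 of 6). In wild types it had 6.64, 5.82, 6.32, 6.53 and 6.50 at P0, against 5.69, 5.83, 5.98 and 6.06 at E18.5, where P0 wild type 2 lay among the E18.5 arrays (0.47 ± 0.23, adjusted p = 0.225, higher in 4 of 5). Its mean signal was at the 40.2 percentile of the tested genes. Between the ages in knockouts, 7 mesothelial markers had a median of 0.47, with 2 called higher and 1 lower, and 9 macrophage markers had a median of 0.42, with 9 above 0 and 3 called higher. Their part in the rise of Igfbp6 was not tested.

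Igfbp4, an inhibitory binding protein that the protease PAPP-A cuts, had a lowest signal of 8.60, a median of 8.74 and a highest of 9.17 in P0 knockouts, against 7.99, 8.59, 8.66, 8.26 and 8.67 in E18.5 knockouts. The groups overlapped, and the difference of 0.37 ± 0.12 passed (adjusted p = 0.0358, higher in 6 of 6). The call ended when any one of P0 knockouts 1 and 5 or E18.5 knockouts 1 and 4 was left out (adjusted p = 0.0649 to 0.107). It also ended without the filter on low signals (adjusted p = 0.0519) and with the compared groups fitted alone (adjusted p = 0.0929), at the same difference of 0.37. In wild types the difference was 0.26 ± 0.14 (adjusted p = 0.258, higher in 5 of 5).

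Igfbp2, a binding protein abundant in fetal tissues, and Igfbp5, which binds to the matrix, were not called in either genotype. Igfbp2 spanned 5.83 to 7.02 in P0 knockouts and 5.68 to 6.13 in E18.5 knockouts, a difference of 0.43 ± 0.18 (adjusted p = 0.1). It would pass without P0 knockout 1 (adjusted p = 0.0302), the lowest of its group at 5.83. In wild types it differed by 0.27 ± 0.20 (adjusted p = 0.458). Igfbp5 spanned 9.47 to 10.64 in P0 knockouts and 9.11 to 10.55 in E18.5 knockouts, with 0.11 ± 0.24 in knockouts (adjusted p = 0.788) and -0.12 ± 0.27 in wild types (adjusted p = 0.841).

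The calls in knockouts depended on which arrays were kept. With the 5 marker-rich arrays named above left out, 2 E18.5 knockouts (3 and 5) were left, and 1 of the 10 genes, Igf2r, was called (-0.67, adjusted p = 0.0360). Over all genes, 475 of 17636 were called in knockouts in that setting, against 4139 of 17993 in the main fit. Igf1 (-0.83) and Igfbp3 (1.59) then had differences of similar or larger size and adjusted p = 0.0894 and 0.0777, and Igf1r had 0.46 (adjusted p = 0.166). Igfbp6 (0.59), Igfbp7 (0.57) and Igfbp4 (0.16) had smaller ones, with adjusted p = 0.250, 0.235 and 0.579. In wild types the calls were the same 2 in that setting, for Igf2r (-0.69, adjusted p = 0.00889) and Igfbp7 (1.05, adjusted p = 0.0150). With the running sample number as a covariate, Igf1r (0.59, adjusted p = 0.0566), Igfbp4 (0.52, adjusted p = 0.125) and Igfbp7 (1.14, adjusted p = 0.0548) were not called in knockouts, nor was Igfbp7 in wild types (1.09, adjusted p = 0.0759). These differences were larger than without the covariate. Igfbp2 was called in knockouts in that setting (1.02, adjusted p = 0.0228). The part of neighbouring tissue in the E18.5 knockout values was not tested further.

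Loss of inceptor gave no call among the 10 genes. At P0, the comparison of knockouts with wild types, which asks what inceptor loss changed at birth, called 0 of the 10, where 0.0111% of all tested genes were called. With limma, 0 of the 10 also had an unadjusted p under 0.05. Differences ran from -0.21 to 0.38, with 4 above and 6 below 0 and a median of -0.052, against 0.0054 over all tested genes. Igf2r had the smallest unadjusted p of the 10, at -0.20 ± 0.12 (adjusted p = 0.629). All 6 knockouts lay under the mean of the wild types, with ranges of 9.20 to 9.45 in knockouts and 9.10 to 9.77 in wild types. Igf1r, the receptor closest to the insulin receptor, differed by 0.051 ± 0.12 (adjusted p = 0.934), with a 95% interval of -0.19 to 0.30. All 16 liver markers were above 0 in this comparison, with a median of 1.04 and 0 called by limma, and their part in the values was not tested beyond the covariate, under which 0 of the 10 genes were called.

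Igfbp3 averaged 11.84 ± 0.41 (SD, n = 6) in P0 knockouts, against 11.46 ± 0.83 (SD, n = 5) in P0 wild types. The knockout difference of 0.38 ± 0.30 did not pass (adjusted p = 0.739), and its 95% interval ran from -0.25 to 1.003. All 6 knockouts lay between wild types 1, 2 and 4 (at most 11.03) and wild type 5 (12.54), so that the spread within wild types was larger than the difference. Igf1 averaged 10.61 ± 0.25 (SD, n = 6) in knockouts, against 10.81 ± 0.44 (SD, n = 5) in wild types, and did not pass (-0.21 ± 0.17, adjusted p = 0.740).

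**Figure D3:**
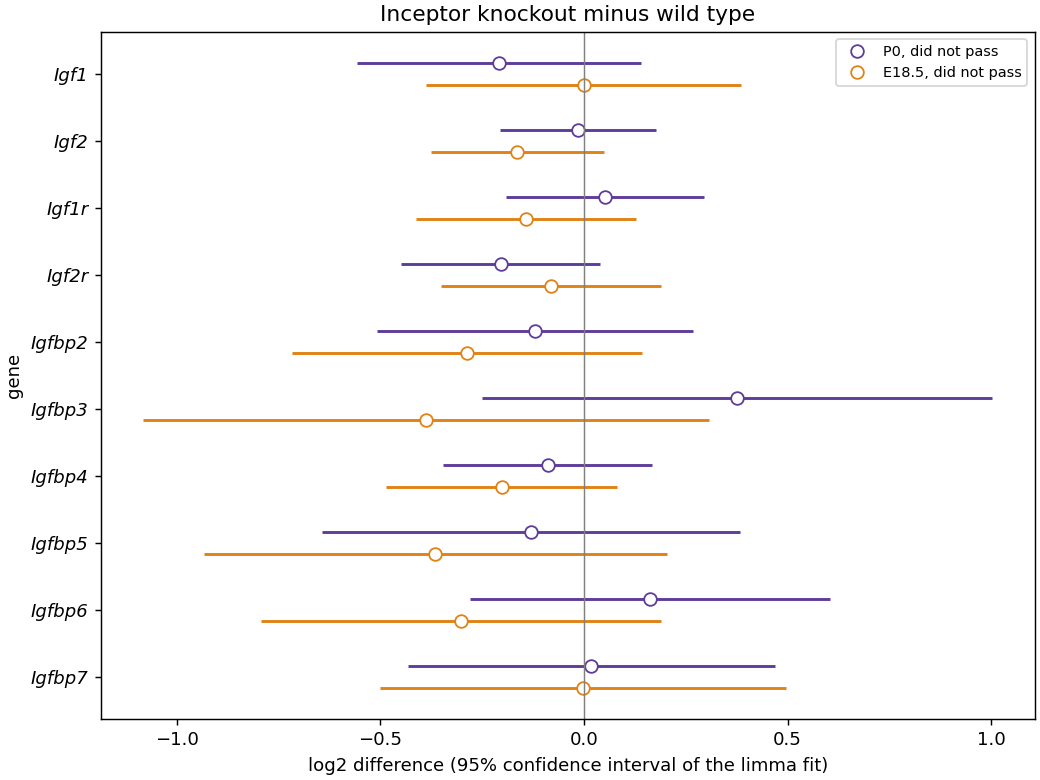
Log2 difference of knockout minus wild type (x axis) for each of the 10 genes (y axis) at P0 (purple, upper of each pair) and E18.5 (orange, lower), with 95% confidence intervals of the limma fit. All intervals hold 0 and no gene was called.

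At E18.5, before birth, the comparison also called 0 of the 10, where 0.0111% of all tested genes were called. With limma, 0 of the 10 had an unadjusted p under 0.05. Here the fitted differences of all 10 genes were below 0, at -0.39 to -0.00060 and a median of -0.18, against 0.020 over all tested genes. Igfbp3 averaged 10.17 ± 0.41 (SD, n = 5) in knockouts, against 10.56 ± 0.09 (SD, n = 4) in wild types (-0.39 ± 0.33, adjusted p = 0.98). Igfbp5 averaged 9.89 ± 0.57 (SD, n = 5) in knockouts, against 10.26 ± 0.04 (SD, n = 4) in wild types (-0.37 ± 0.27, adjusted p = 0.967). Igfbp6 differed by -0.30 ± 0.23 (adjusted p = 0.97) and Igfbp2 by -0.29 ± 0.20 (adjusted p = 0.967). Igf1 and Igfbp7 differed by less than 0.01, at -0.00060 ± 0.18 and -0.0021 ± 0.24.

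The low side at E18.5 rested in part on 1 array. E18.5 knockout 1 was the lowest of its group for 7 of the 10 genes and the lowest of all E18.5 arrays for 6, among them Igfbp5 (9.11), Igfbp7 (13.76) and Igfbp4 (7.99). Without it 8 of the 10 genes were below 0, with a median of -0.11, and without the 5 marker-rich arrays 7 were, with a median of -0.084. With arrays centred on their medians 8 were below 0, with quantile normalisation repeated 9 and with cyclic loess 10. All 7 tested intestinal markers were above 0 at E18.5, with a median of 0.74 and 0 called by limma. Of the 18 mesenchymal and matrix markers 1 was above 0, with a median of -0.23, and of 7 mesothelial markers 1 was above 0, with a median of -0.47. E18.5 knockout 1 also had the lowest mean of the mesenchymal markers (10.43, where the other E18.5 arrays had 10.62 to 11.23). With the mesenchymal mean as a covariate 8 of the 10 members were below 0, at a median of -0.13.

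**Figure D4:**
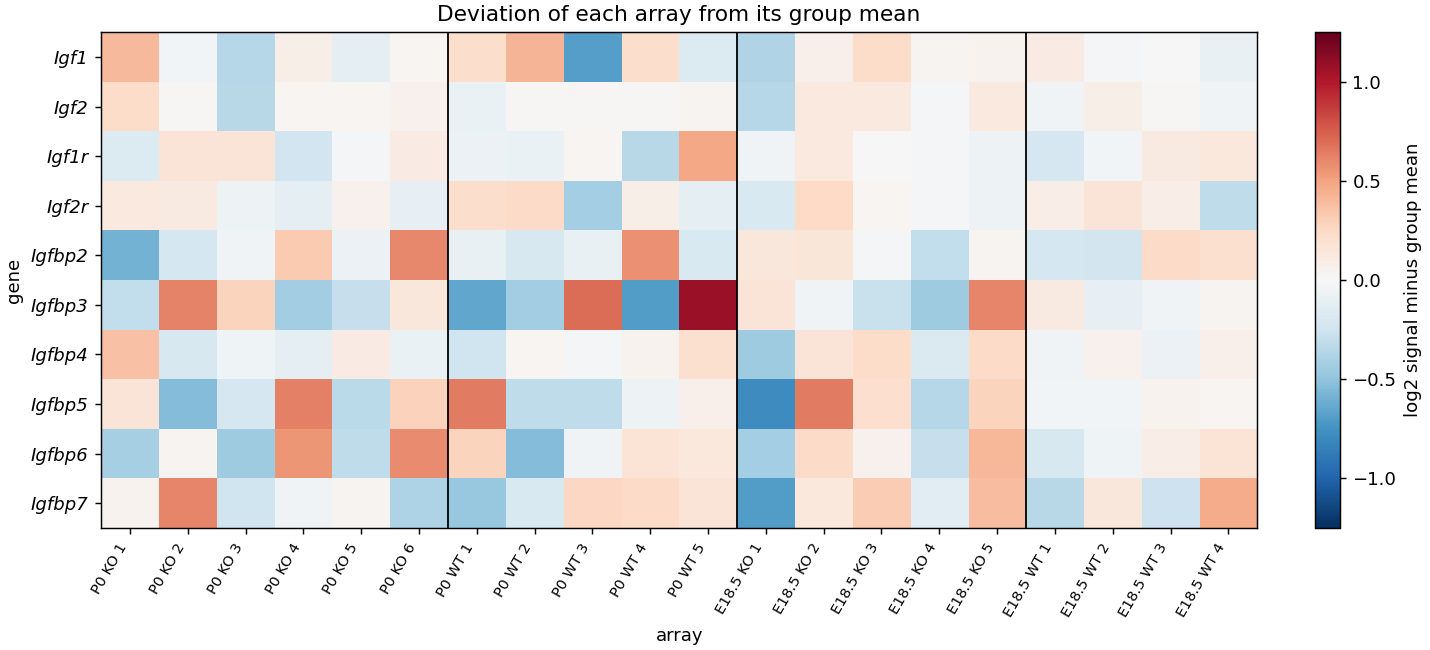
Signal of each array minus the mean of its group (colour, log2 units, red above and blue below the group mean) for the 10 genes (rows) on the 20 arrays (columns, KO knockout and WT wild type). E18.5 KO 1 is low for most genes, and Igfbp3 is high on P0 WT 3 and 5 and low on P0 WT 1, 2 and 4.

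Averaged over both ages, 0 of the 10 genes were called between the genotypes by limma (0 at an unadjusted p under 0.05), where 0.0167% of all tested genes were, and the lowest adjusted p was 0.804. The difference of the genotype effect between the ages, which is also the difference of the age effect between the genotypes, called 0 of the 10, as it called 0% of all tested genes. With limma, 0 of the 10 had an unadjusted p under 0.05 for it. It was largest for Igfbp3 at 0.76 ± 0.45 (adjusted p = 0.768), with a 95% interval of -0.17 to 1.70, and next for Igfbp6 at 0.47 ± 0.31 (adjusted p = 0.796). For Igf2r it was -0.12 ± 0.17 and for Igfbp7 0.020 ± 0.32 (adjusted p = 0.923 and 1).

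The order of the 4 group means followed age for most members. Igf2r was highest in E18.5 wild types (10.11 ± 0.22 SD, n = 4), then E18.5 knockouts (10.03 ± 0.16 SD, n = 5), P0 wild types (9.53 ± 0.28 SD, n = 5) and P0 knockouts (9.32 ± 0.11 SD, n = 6). The step between the ages exceeded the SD of its neighbours, and the steps within an age did not. Igfbp3 was highest in P0 knockouts (11.84), then P0 wild types (11.46), E18.5 wild types (10.56) and E18.5 knockouts (10.17), and again only the step between the ages exceeded both SDs of its neighbours. Igfbp7 was at 15.37 and 15.35 in P0 knockouts and P0 wild types and at 14.46 in both E18.5 groups. Other members were less clear. For Igfbp2 and Igfbp4 the step between the ages (0.15 and 0.17) was smaller than that between the genotypes at E18.5 (0.29 and 0.20). For Igf1r the step between the ages (0.18) was smaller than the SD of the P0 wild types (0.30).

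Some other genes of IGF and growth hormone signalling were also called between the ages, at a share not far above that of all tested genes. Of 48 listed genes, 37 were tested, and 11 of these were called in knockouts (7 higher and 4 lower at P0) and 5 in wild types (4 higher and 1 lower). That was 29.7% in knockouts and 13.5% in wild types, beside 23.0% and 8.86% of all tested genes. Socs2, which feeds back on growth hormone signalling, rose in both genotypes (0.53 ± 0.06 in knockouts, adjusted p = 4.62e-05, and 0.38 ± 0.07 in wild types, adjusted p = 0.00446). Jak2, the kinase at the growth hormone receptor, also rose in both (0.69 ± 0.11, adjusted p = 0.000290, and 0.47 ± 0.12, adjusted p = 0.0213). Stc2, a stanniocalcin that inhibits PAPP-A, fell in both (-0.58 ± 0.10, adjusted p = 0.000774, and -0.50 ± 0.12, adjusted p = 0.0126).

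In knockouts the growth hormone receptor Ghr fell as well (-0.72 ± 0.13, adjusted p = 0.000919), as did Stc1 (-0.64 ± 0.15, adjusted p = 0.00643), the other stanniocalcin, and Igfals (-0.40 ± 0.12, adjusted p = 0.0179), the acid-labile subunit, whose signals lay near the array medians. Pappa, which encodes PAPP-A, rose there (0.81 ± 0.21, adjusted p = 0.00976), with medians of 7.14 in P0 knockouts and 6.23 in E18.5 knockouts. Foxo3 (0.87 ± 0.20, adjusted p = 0.00413), a transcription factor held in check by AKT, and Pik3r1 (0.59 ± 0.20, adjusted p = 0.0370), the regulatory subunit of PI3-kinase, rose too, and so did the protease Adamts1 (0.43 ± 0.15, adjusted p = 0.0424). In wild types the adaptor Gab1 (0.43 ± 0.10, adjusted p = 0.0140) and M6pr (0.41 ± 0.11, adjusted p = 0.0307), the smaller mannose 6-phosphate receptor beside Igf2r, rose. A call in 1 genotype alone does not show that the genotypes differ. In wild types Stc1 differed by -0.54 (adjusted p = 0.0546), Pappa by 0.55 (adjusted p = 0.156) and Ghr by -0.31 (adjusted p = 0.207). Foxo3, Pik3r1, Adamts1 and Igfals differed there by 0.047, 0.13, 0.088 and 0.024. In knockouts Gab1 differed by 0.25 (adjusted p = 0.0552) and M6pr by 0.13 (adjusted p = 0.375). Between the genotypes 1 gene of the list was called at each age, Elapor1 itself. With Elapor1 included, 7 of 37 genes at P0 and 1 at E18.5 had an unadjusted limma p under 0.05. Over all 17993 tested genes 1576 and 980 did. Next to Elapor1, Foxo3 had the smallest p at P0 (0.61 ± 0.20, adjusted p = 0.440). For the difference between the ages 0 were called by limma, where 3 of 37 had an unadjusted p under 0.05, beside 1256 of all 17993 tested genes. The 4 smallest p-values for that difference belonged to Foxo3 (0.83 ± 0.30), Stat5b (0.19 ± 0.08), Igfals (-0.43 ± 0.17) and Ghr (-0.42 ± 0.20), with adjusted p = 0.634 to 0.711.

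Within groups, the members did not vary as a block. Over the 20 arrays, as deviations from the group means, Pearson's r was over 0.7 in size for 2 of the 45 pairs, Igf1 with Igf2r (r = 0.74, Spearman's rho = 0.61) and Igf2 with Igfbp4 (r = 0.73, rho = 0.74), the second of which involves the Igf2 plateau. These values describe arrays that share dissection and normalisation, and carry no test. Igf1 and Igfbp3 ran against each other (r = -0.63, rho = -0.69). On P0 wild type 3 Igf1 was lowest (10.13) and Igfbp3 second highest (12.17) of the P0 wild types.

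Leaving out predicted genes, clones, small RNAs, microRNAs and olfactory or vomeronasal receptors, the genes most like each member in these deviations differed between members. These genes were picked for the highest r in a search over many genes, so that high values can arise by chance. No test of the values was run, and whether the picked genes share a function with a member was not tested. For Igf2r they were Uggt1, Sec31a and Hyou1 (r = 0.85 to 0.88), which act in folding and export of secreted proteins. For Igf1 they were Anpep, Dnajc3 and Lcmt1 (r = 0.79 to 0.85), and for Igf1r Arhgap5, Mertk and Gpr182 (r = 0.84 to 0.90). For Igfbp3 they were N4bp2l1, Klk1b24 and Ivd (r = 0.89 to 0.91). For Igfbp5 they were Col14a1, Col3a1 and Fndc1 (r = 0.84 to 0.87), of which the first and second encode collagens, and for Igfbp6 Cavin2, Efemp1 and Muc16 (r = 0.83 to 0.87), of which Muc16 is a mesothelial marker. For Igfbp4 they were Nfia, Col6a2 and Laptm5 (r = 0.81 to 0.83), for Igfbp7 Fam3a, Rgs19 and Zbtb37 (r = 0.80 to 0.82), for Igfbp2 Hnmt, Cmc1 and Emc7 (r = 0.78 to 0.79), and for Igf2 Laptm5, Zc3h7a and Camsap2 (r = 0.87 to 0.92).

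The means of the marker lists also ran with different members, by deviation from the group means. The mean of 7 mesothelial genes, Muc16 among them, followed Igfbp5 (r = 0.78, rho = 0.76) and Igfbp6 (r = 0.73, rho = 0.78). The mean of 18 mesenchymal and matrix genes followed Igfbp5 less closely (r = 0.42, rho = 0.35). That mean also followed Igfbp4 (r = 0.51, rho = 0.45) and Igf1 (r = 0.48, rho = 0.38), and ran against Igfbp3 (r = -0.47, rho = -0.51). The mean of 11 endothelial genes followed Igfbp7 (r = 0.69, rho = 0.65) and Igfbp4 (r = 0.55, rho = 0.52). Igfbp6 also followed the mean of 9 macrophage genes (r = 0.66, rho = 0.65). Igfbp7 ran against the mean of 9 neuron and Schwann cell genes (r = -0.72, rho = -0.58), and followed the macrophage (r = 0.56, rho = 0.54) and islet (r = 0.53, rho = 0.52) means. Igfbp4 ran against the neuron mean too (r = -0.62, rho = -0.38). E18.5 knockout 1 had a neuron mean of 8.38, where the other E18.5 knockouts had 6.10 to 6.57. It also had the lowest Igfbp7 (13.76) and Igfbp4 (7.99) of its group, and its part in these correlations was not tested. Igf1 followed the mean of 7 duct genes (r = 0.65, rho = 0.50), and Igfbp3 ran against it (r = -0.62, rho = -0.68). Igf2r followed the mean of 10 acinar genes (r = 0.60, rho = 0.58). Igf2 followed the macrophage mean (r = 0.59, rho = 0.42) and Igfbp2 the mesothelial mean (r = 0.58, rho = 0.64). For the mean of 16 liver genes, r ran from -0.29 for Igf2r to 0.44 for Igfbp2 over the 10 members, with 0.35 for Igfbp6 and 0.28 for Igfbp7. Igfbp1, the liver product left out of the list, spanned 6.08 to 10.78 in P0 knockouts, 4.78 to 8.58 in P0 wild types, 4.87 to 8.27 in E18.5 knockouts and 5.42 to 7.86 in E18.5 wild types.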

How the data were processed

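Per the submitters' processing notes, the deposited log2 values come from RMA, run by the authors with the software Affymetrix Expression Console, version 1.4.1.46, on total RNA that was isolated, amplified and labelled with biotin. The values run from 2.17 to a ceiling of 19.932. The genome build of the array was not given in the sources used here, so no probe set coordinates are given, and the promoter windows are placed on the GRCm38.p6 build of the RefSeq table. Of 65956 probe sets 30604 carried 1 gene symbol, and symbols were updated to GRCm38.p6. Per gene, the probe set with the highest mean was used, and a gene was tested where its signal exceeded the median of the array on 4 or more arrays. The model had 1 mean per group over the 20 arrays and was fitted in limma (version 3.58.1, R version 4.3.3; two-sided, 16 residual and 17.9 total degrees of freedom). The number of arrays limits the precision. The script was tested on simulated data. The 10 members, the related genes, the marker lists and the tests were chosen with earlier results of these data known. The rule for named genes took all 10 members, Elapor1, up to 6 called related genes in each direction (Furin, 1 more gene called higher in knockouts, was beyond it) and the 3 genes most like each member. All 15 other settings, and leaving out each array, are described in the closing section. Of the tested erythroid (3), neuron and Schwann cell (9), macrophage (9) and duct (6) markers also listed, 0 were called between the genotypes by limma. Figures used matplotlib 3.10.9.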

Additional observations from a re-analysis of the deposited data

Results flagged for a closer look

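In 2 of 40 sets of arrays (10 genes in 4 groups) 1 array stood far from the rest of its group by Dixon's test, where chance gives about 1 in 20. Igf2 was 11.352 on P0 wild type 1, where the other 4 P0 wild types had 11.448 to 11.467, with 3 of them on the shared value of 11.448. Igfbp2 was 7.107 on P0 wild type 4, where the other 4 had 6.34 to 6.45.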

How the results depend on the processing

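The 10 genes were recomputed under 15 other settings and without each of the 20 arrays. No called difference turned its direction. In knockouts 7 members were called between the ages, 5 to 7 when 1 array was left out, and 1 without the 5 marker-rich arrays, which left 2 E18.5 knockouts. In wild types 2 were called, 1 to 2 when 1 array was left out, 1 when only the compared groups were fitted and 1 with the running sample number as a covariate. The counts between the genotypes and for the difference between the ages were 0 in every setting run. Counts over all genes that moved by over 1.5 times were, between the ages in knockouts (4139), 1939 with the sample number and 475 without the marker-rich arrays. In wild types (1594) they were 1046 with the compared groups alone, 833 with the mesenchymal mean, 2686 at an adjusted p under 0.10, and 667 to 1821 without 1 array. Between the genotypes at P0 (2) they were 1 in 6 settings, 43 at an adjusted p under 0.10 and 1 to 45 without 1 array. At E18.5 (2) they were 5 with array weights, 1 without the marker-rich arrays and 2 to 4 without 1 array. Averaged over the ages (3) the count was 1 without the marker-rich arrays and 3 to 5 without 1 array, and for the difference between the ages (0) it was 0 to 34. Same-numbered knockout and wild-type arrays had deviations correlated at -0.031 to 0.24, not all over 0.1, so the numbers were not taken as pairs. With a replicate block 6 members were called in knockouts (Igfbp4 was lost, adjusted p = 0.0605) and 2 in wild types, and 3527 and 1126 genes in all. The mean signals of Igfbp2 and Igfbp6 lay at the 44.5 and 40.2 percentile of the tested genes, and signal over background was not measured.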
